A study of Mus musculus with 36 samples.

Results

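The immediate response of control C2C12 myotubes to electrical pulse stimulation (EPS) was described across genes by comparing the libraries labelled EPS 0h Control, replicates 1 to 6, with those labelled Rest Control, replicates 1 to 6. These 12 of the 36 libraries of the series were chosen by their labels alone and no measured value entered the choice. C2C12 is an established mouse muscle cell line, whose myoblasts fuse into multinucleated myotubes when serum is withdrawn. All 12 wells carried a negative control locked nucleic acid (LNA) oligonucleotide, transfected on day 3 of differentiation, 24 h before the experiment on day 4. EPS lasted 3 h, with 2 ms pulses of 13 V at 66 Hz given for 5 s and paused for 5 s in alternation, and the EPS 0h myotubes were harvested as it ended. Rest wells also held carbon electrodes, but received no pulses. The remaining 24 libraries are the control myotubes after 3 h of recovery (EPS 3h) and the Rest, EPS 0h and EPS 3h myotubes transfected with an LNA against the long noncoding RNA Tug1 (Tug1 KD), 6 libraries in each group. The wells came from a single cell line without nerve, vessels or load. By the study's methods each group of 6 holds 3 wells from each of 2 independent experiments, so n = 6 counts wells and only 2 experiments stand behind it. The labels do not say which replicates belong to which experiment, and the fit has no term for it. The p-values measure the spread over all wells of a group, with any difference between the experiments included.

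Muscle contraction releases calcium from the sarcoplasmic reticulum, consumes ATP, warms the fibre and deforms its proteins, and each of these signals reaches the nucleus by a pathway of its own. Calcium acts through calmodulin kinases, calcineurin and the transcription factors CREB, MEF2 and NFAT, and immediate-early genes such as the NR4A nuclear receptors follow. Damaged or unfolded protein frees heat shock factor 1, which binds heat shock elements upstream of chaperone genes. Amino acid shortage and stress of the endoplasmic reticulum raise translation of ATF4, whose targets restore amino acid supply, while NRF2, held down by KEAP1, drives genes of glutathione and NADPH supply. Skeletal muscle also secretes proteins on contraction, the myokines.

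The 12 libraries held 17675366 to 22516122 counts at Rest (median 20155805) and 17694700 to 22474726 at EPS 0h (median 19764457.5). Levels below are in RPM, each count divided by its library's total and TMM scaling factor and multiplied by 1000000. At the median depths 3 counts correspond to about 0.149 RPM at Rest and 0.152 RPM at EPS 0h before the TMM factor. Fold changes are log2 ratios of EPS 0h over Rest (log2FC) from edgeR's quasi-likelihood fit, with Benjamini-Hochberg adjustment over 13995 genes. A gene is said to have risen or fallen where the adjusted p was under 0.05, and the stricter rule asks for an adjusted p under 0.01 and a log2FC beyond 1 in size. Of the genes tested, 2872 (20.5%) rose and 2569 (18.4%) fell, while 872 (6.23%) and 308 (2.2%) passed the stricter rule, and these shares are the background for each gene group below. The rises were 52.8% of the calls with TMM scaling and 40.0% of the calls (2324 higher and 3483 lower) with scaling by library totals alone, so the balance between directions depends on the scaling. The first principal component of the 12 libraries (59.4% of the variance) separated Rest from EPS 0h, and the next (18.8%) separated replicates 1 to 3 from replicates 4 to 6. Values within these replicate sets are given for named genes whose log2FC differed between them by more than 1, and for *Ccl2*. With the replicate number as a block, 3508 genes rose (25.1%) and 3556 fell (25.4%), which is the background for the blocked counts given below, and with a term for replicates 1 to 3 against 4 to 6 these were 3343 (23.9%) and 3394 (24.3%). All 12 myotube markers exceeded 1 RPM and their summed level was 17732 to 22204 RPM at Rest and 17933 to 19794 RPM at EPS 0h, with 0 of 12 called by edgeR and 1 with an unadjusted p under 0.05. The 6 endothelial markers summed to 2.67 to 4.61 RPM and 4.75 to 6.42 RPM, with 2 of the 4 tested higher. The 5 adipocyte markers summed to 0.201 to 0.417 RPM at Rest and 0.778 to 2.25 RPM at EPS 0h and none passed the filter on low counts. Fibroblast markers summed to 2428 to 3464 RPM and 2030.3 to 2779.7 RPM, with 2 of 6 tested lower. The 8 markers of undifferentiated or proliferating myoblasts summed to 362 to 417 RPM and 357 to 405 RPM, with 2 of 8 higher and 2 lower, and their part in the results for myogenic genes was not tested.

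More chaperone genes rose than fell. Of 64 genes in 5 chaperone lists, 28 rose (43.8%) and 6 fell (9.38%), beside 20.5% and 18.4% of all genes, and 11 passed the stricter rule, all of them higher. The summed level of the 13 HSP70 and HSP110 genes was 8857 ± 1099 RPM at Rest and 20632 ± 1685 RPM at EPS 0h (SD, n = 6 in each group). Their HSP40 partners, which deliver substrates to HSP70, went from 3466.5 ± 306 to 6935 ± 517 RPM. The 24 genes of HSP90, mitochondrial HSP60 and their co-chaperones summed to 14127 ± 1546 RPM and then to 24309 ± 2356 RPM. The lowest EPS 0h library exceeded the highest Rest library for each of these 3 sums. A shorter heat-shock list was already known to be higher in these libraries when the lists were drawn up, so the direction of the chaperone lists is not independent evidence.

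*Hsph1* encodes HSP110, a nucleotide exchange factor that resets HSP70 and helps it pull apart aggregates. Its level was 1423 to 2504 RPM at Rest (median 1831) and 4706 to 6810.2 RPM at EPS 0h (median 5522), a log2FC of 1.60 (SE 0.15, edgeR adjusted p = 1.2e-10). Among the HSP40 genes *Dnaja4* moved most, with 79.4 to 139.8 RPM at Rest (median 98.5) and 356 to 576 RPM at EPS 0h (median 509), a log2FC of 2.23 (SE 0.14, edgeR adjusted p = 6.3e-14). *Dnajb1*, the partner of the stress-inducible HSP70, reached 2138 to 3744 RPM at EPS 0h (median 2847) from 708 to 1213 RPM at Rest (median 995), a log2FC of 1.56 (SE 0.17, edgeR adjusted p = 2.7e-09). *Hspa1l*, an HSP70 gene best known from the testis, was at 1.36 to 3.92 RPM at Rest (median 1.88) and 4.34 to 14.4 RPM at EPS 0h (median 9.52), a log2FC of 2.02 (SE 0.43, edgeR adjusted p = 0.00032). The neighbouring genes *Hspa1a* and *Hspa1b* rose with log2FC of 3.14 (SE 0.26) and 1.82 (SE 0.15), but they encode nearly identical transcripts and reads could be divided between them in counting, so their separate values are uncertain. *Hspa8*, the constitutive cytosolic HSP70, had a log2FC of 0.45 (SE 0.10, edgeR adjusted p = 0.00039). *Hspa2*, a testis-enriched member, fell by 0.45 on the log2 scale and *Hspa12b*, a distant relative of endothelial cells, fell by 0.87. The Rest and EPS 0h ranges were separate for *Hsph1*, *Dnaja4*, *Dnajb1* and *Hspa1l*.

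The mitochondrial chaperonin moved as a pair. *Hspd1*, which encodes HSP60, was at 723 to 1168 RPM at Rest (median 930.0) and 2569 to 3124 RPM at EPS 0h (median 2860.1), a log2FC of 1.58 (SE 0.12, edgeR adjusted p = 8.0e-13). *Hspe1*, which encodes its lid HSP10 and is transcribed from the same promoter region in the opposite direction, was at 264 to 515 RPM at Rest (median 347) and 759 to 1368 RPM at EPS 0h (median 1009.7), a log2FC of 1.47 (SE 0.23, edgeR adjusted p = 3.7e-06). *Bag3*, which couples HSP70 to the autophagic removal of damaged sarcomere proteins, rose with a log2FC of 1.22 (SE 0.10, edgeR adjusted p = 1.1e-11). The stress-inducible HSP90 gene *Hsp90aa1* had a log2FC of 1.20 (SE 0.19) and the constitutive *Hsp90ab1* one of 0.37 (SE 0.08). The HSP90 co-chaperones *Ptges3*, *Chordc1*, *Stip1*, *St13*, *Fkbp4* and *Ahsa1* rose with log2FC from 0.58 to 0.93, while the steroid receptor immunophilin *Fkbp5* fell by 0.38. Of the 8 small heat shock proteins, *Hspb1* and *Hspb8* rose (log2FC 0.74 and 0.49) and *Hspb7* fell by 0.32. *Cryab*, the abundant small heat shock protein of striated muscle, had a log2FC of 0.40 with an edgeR adjusted p of 0.051, or 0.00061 with the replicate number as a block. In the TRiC chaperonin, which folds actin and tubulin, 2 of 8 subunits rose, or 4 with the block, and the log2FC of *Cct4* was 0.25 (SE 0.07). For *Hspd1* and *Hspe1* no Rest library reached into the EPS 0h range.

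Heat shock elements are written here as the pair GAANNTTC or TTCNNGAA and were searched on both strands from 250 bases before to 50 after the start of each gene's canonical transcript in the GENCODE annotation of GRCm39, which can lie inside the gene's outer bounds. They stand in capitals in the promoters of 4 chaperone genes that rose, which are shown because heat shock factor 1 is known to bind such elements.
Hspa1a: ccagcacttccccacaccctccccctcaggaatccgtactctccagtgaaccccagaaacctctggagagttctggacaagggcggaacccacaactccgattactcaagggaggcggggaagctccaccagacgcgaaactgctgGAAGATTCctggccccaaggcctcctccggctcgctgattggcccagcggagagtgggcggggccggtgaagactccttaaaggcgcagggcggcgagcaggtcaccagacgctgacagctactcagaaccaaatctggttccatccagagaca
Hsph1: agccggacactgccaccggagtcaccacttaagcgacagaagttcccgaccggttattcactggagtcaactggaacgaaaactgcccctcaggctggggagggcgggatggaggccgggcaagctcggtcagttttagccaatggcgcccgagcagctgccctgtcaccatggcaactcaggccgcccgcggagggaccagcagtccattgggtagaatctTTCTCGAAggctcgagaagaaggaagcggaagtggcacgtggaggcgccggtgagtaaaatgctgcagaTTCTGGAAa
Dnajb1: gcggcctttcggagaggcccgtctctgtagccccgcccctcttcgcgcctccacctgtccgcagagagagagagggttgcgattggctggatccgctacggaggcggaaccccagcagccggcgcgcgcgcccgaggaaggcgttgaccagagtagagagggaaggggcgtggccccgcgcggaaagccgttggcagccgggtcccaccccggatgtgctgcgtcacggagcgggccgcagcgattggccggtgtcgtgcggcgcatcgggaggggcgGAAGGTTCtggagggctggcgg
Hspd1: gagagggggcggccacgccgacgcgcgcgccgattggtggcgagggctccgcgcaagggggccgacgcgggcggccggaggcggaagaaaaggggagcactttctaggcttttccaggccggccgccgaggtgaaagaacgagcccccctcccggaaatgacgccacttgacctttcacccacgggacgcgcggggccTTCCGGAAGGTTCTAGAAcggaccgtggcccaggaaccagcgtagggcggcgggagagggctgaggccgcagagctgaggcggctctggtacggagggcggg
These windows are chr17:35191083-35191382 on the minus strand, chr5:149559757-149560056 on the minus strand, chr8:84334572-84334871 on the plus strand and chr1:55127134-55127433 on the minus strand, each printed in the sense of its gene. Counting the start base as 0, the matches begin at -104 in *Hspa1a*, at -28 and 41 in *Hsph1*, at 28 in *Dnajb1*, and at -52, -47 and -42 in *Hspd1*, where they overlap and form a longer array of alternating units. The *Hspd1* window also holds the start of *Hspe1*, on the other strand. A pair occurred in 12.4% of the 12575 protein-coding promoters read, in 92 of 580 (15.9%) promoters of genes higher by the stricter rule and in 13.2% of the 228 of lower genes. An array of 3 alternating units occurred in 0.469% of all and in 9 (1.55%) of the higher genes' promoters. In the chaperone lists a pair stood in 4 of 13 HSP70 and HSP110 promoters and in 3 of 11 HSP40 promoters. It stood in 3 of 8 promoters of small heat shock proteins, 5 of 24 of the HSP90 and HSP60 list and 1 of 8 of TRiC, so most had none. A match describes letters in the sequence and is not a measured binding site.

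**Figure D1:**
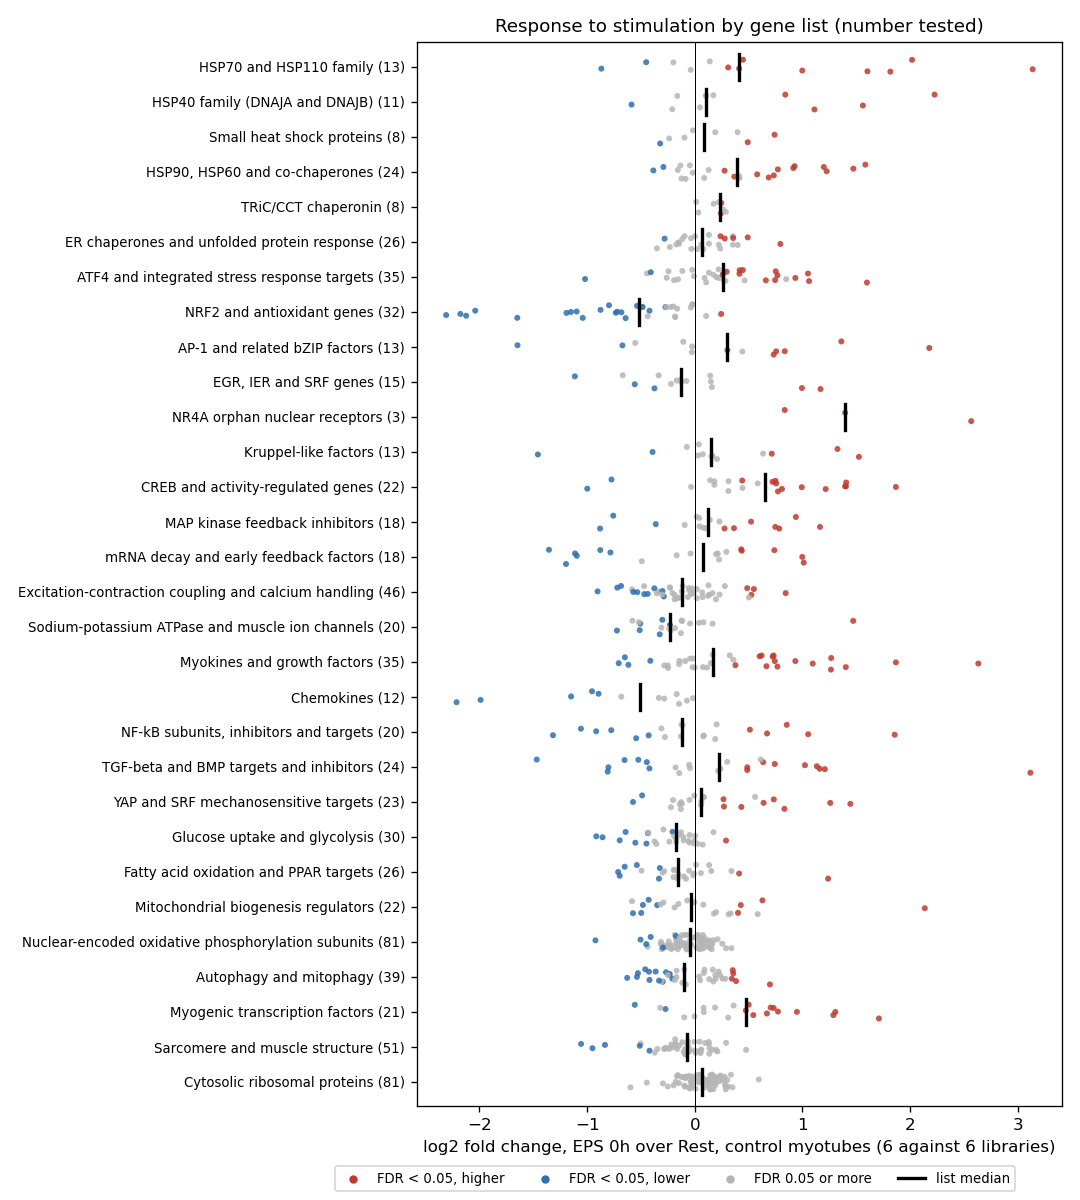
log2 fold change (EPS 0h over Rest) of each tested gene in a selection of the gene lists, 1 point a gene. Red marks genes that rose and blue genes that fell at an edgeR adjusted p under 0.05. Grey marks the others, and a black bar stands at each list's median. The medians run from -0.51 for chemokines and -0.52 for NRF2 genes to 1.40 for the NR4A receptors.

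More targets of ATF4 rose than fell, while *Atf4* itself did not pass the test. Of 35 listed genes, 13 rose and 2 fell (19 and 4 with the replicate number as a block), with a median log2FC of 0.26 beside -0.03 over all genes. With scaling by library totals 10 rose (28.6%, beside 16.6% of all genes) and 6 fell (17.1%, beside 24.9%). *Chac1*, which degrades glutathione and is among the most sensitive ATF4 targets, was at 50.5 to 97.7 RPM at Rest (median 68.2) and 147 to 319 RPM at EPS 0h (median 187), a log2FC of 1.60 (SE 0.24, edgeR adjusted p = 2.0e-06). *Sesn2*, a leucine sensor that restrains mTORC1, was at 25 to 34.5 RPM at Rest (median 29.2) and 50.2 to 84.5 RPM at EPS 0h (median 55.1), a log2FC of 1.06 (SE 0.18, edgeR adjusted p = 1.9e-05). Asparagine synthetase, *Asns*, had 94.8 to 141 RPM at Rest (median 119) and 170.5 to 228 RPM at EPS 0h (median 195), a log2FC of 0.75 (SE 0.09, edgeR adjusted p = 6.8e-08). *Cebpg*, the dimer partner of ATF4, rose with a log2FC of 1.05 (SE 0.12), and the amino acid transporter subunits *Slc7a1* and *Slc3a2* with 0.75 and 0.41. *Atf5* fell by 1.02 (edgeR adjusted p = 0.00053), from 109.7 to 149 RPM at Rest (median 131) to 48.6 to 85.6 RPM at EPS 0h (median 61). The *Atf4* mRNA, whose product is set mainly by translation, was at 648 to 744 RPM at Rest (median 697) and 552 to 829 RPM at EPS 0h (median 665), a log2FC of -0.02 (SE 0.14, edgeR adjusted p = 0.91). *Ddit4*, an inhibitor of mTORC1, had a log2FC of -0.04 in replicates 1 to 3 and 1.32 in replicates 4 to 6, with an edgeR adjusted p over all 6 of 0.07 (0.048 with the replicate block). Of 26 genes of the endoplasmic reticulum chaperones and unfolded protein response, 5 rose and 1 fell, or 8 and 3 with the block. With scaling by library totals 3 rose and 6 fell (11.5% and 23.1%, beside 16.6% and 24.9% of all genes), so their balance depends on the scaling. *Herpud1*, which helps retrieve misfolded proteins for degradation, had the highest log2FC of the 26 (0.79, SE 0.11). No overlap between the groups was seen for *Chac1*, *Sesn2*, *Asns* and *Atf5*. Overlap was seen for *Atf4*.

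The promoter of *Chac1* at chr2:119181439-119181738 (GRCm39, plus strand) is shown because this gene had the highest log2FC of the ATF4 list, with a match to the ATF4 motif TGATGNAA, read on the reverse strand, in capitals.
Chac1: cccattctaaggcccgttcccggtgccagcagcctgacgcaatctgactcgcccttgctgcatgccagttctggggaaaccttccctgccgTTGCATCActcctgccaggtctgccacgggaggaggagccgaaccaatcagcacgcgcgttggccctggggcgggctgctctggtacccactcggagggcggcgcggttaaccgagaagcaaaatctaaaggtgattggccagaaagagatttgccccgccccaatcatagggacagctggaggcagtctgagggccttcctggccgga
The match begins 159 bases before the start. Of the ATF4 list's 35 promoters 9 (25.7%) hold this motif, and of all protein-coding promoters 2.5%.

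Most listed genes of the NRF2 antioxidant programme fell. Of the 32 listed, 19 fell and 1 rose, 9 passed the stricter rule, and the median log2FC was -0.52. All 19 that fell were lower in every EPS 0h library than in every Rest library, as were 1420 of all genes tested (10.1%) and 1387 (54.0%) of the 2569 that fell. The summed level of the list was 11571 ± 1056 RPM at Rest and 8842 ± 1233 RPM at EPS 0h (SD, n = 6). *Nqo1*, a quinone reductase and the most used reporter of NRF2 activity, was at 47.5 to 58 RPM at Rest (median 50.9) and 8.28 to 15.5 RPM at EPS 0h (median 11.2), a log2FC of -2.12 (SE 0.18, edgeR adjusted p = 3.2e-11). The alpha class glutathione transferase *Gsta4* was at 114 to 129 RPM at Rest (median 122) and 29 to 54.2 RPM at EPS 0h (median 36.8), a log2FC of -1.65 (SE 0.21, edgeR adjusted p = 1.3e-07). *Gsta1*, *Gsta2* and *Gsta3* had log2FC of -2.31, -2.04 and -2.18, and since *Gsta1* and *Gsta2* are near-identical copies their separate values are uncertain. *G6pdx*, the NADPH-forming entry enzyme of the pentose phosphate pathway, was at 48.1 to 78.5 RPM at Rest (median 66) and 23.5 to 35.1 RPM at EPS 0h (median 29.9), a log2FC of -1.15 (SE 0.17, edgeR adjusted p = 1.4e-06). *Pgd*, which forms NADPH in the same branch, and *Tkt*, of the non-oxidative branch, fell by 1.19 and 0.80 on the log2 scale. Both subunits of the rate-limiting enzyme of glutathione synthesis fell, *Gclc* by 0.64 and *Gclm* by 0.72, as did glutathione reductase, *Gsr*, by 0.68. *Hmox1*, haem oxygenase 1, was at 2146 to 3456 RPM at Rest (median 2608) and 1264 to 2755 RPM at EPS 0h (median 1748), a log2FC of -0.49 (SE 0.25, edgeR adjusted p = 0.12), and its adjusted p was 0.0012 with the replicate block. The gene for NRF2, *Nfe2l2*, was the member that rose (log2FC 0.25, SE 0.09), while its inhibitor *Keap1* fell by 0.54. All 6 EPS 0h libraries lay on the same side of all 6 Rest libraries for *Nqo1*, *Gsta4* and *G6pdx*. *Hmox1* had overlapping groups.

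The promoter of *Gclm* at chr3:122038876-122039175 (GRCm39, plus strand) holds a match to the antioxidant response element TGACNNNGC, read on the reverse strand, in capitals, and is shown as a defining NRF2 target.
Gclm: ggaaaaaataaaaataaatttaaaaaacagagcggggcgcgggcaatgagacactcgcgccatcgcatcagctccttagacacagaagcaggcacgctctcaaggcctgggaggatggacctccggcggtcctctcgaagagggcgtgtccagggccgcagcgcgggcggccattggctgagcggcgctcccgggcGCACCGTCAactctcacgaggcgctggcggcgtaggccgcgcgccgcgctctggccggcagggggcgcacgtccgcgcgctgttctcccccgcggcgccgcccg
The match begins 54 bases before the start. The motif occurred in 7 of 32 (21.9%) promoters of the list and in 13.6% of protein-coding promoters.

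Aldehyde and retinoid genes, which include targets of the aryl hydrocarbon receptor, had 7 of 13 tested members lower (4 without replicate 2) and 3 higher. *Aldh3a1*, an aldehyde dehydrogenase induced by the receptor, was at 90.9 to 123 RPM at Rest (median 105) and 14 to 22.7 RPM at EPS 0h (median 14.6), a log2FC of -2.71 (SE 0.24, edgeR adjusted p = 4.0e-11), the largest fall of a gene with a standard symbol and 5 RPM in either group. *Cyp1b1*, an oestrogen and retinoid hydroxylase induced by the receptor, fell by 1.11 (edgeR adjusted p = 0.00016). The receptor gene *Ahr* rose, from 30.3 to 38.8 RPM at Rest (median 34.4) to 52.2 to 70.1 RPM at EPS 0h (median 62.6), a log2FC of 0.85 (SE 0.15, edgeR adjusted p = 2.2e-05). *Tiparp*, its feedback inhibitor, had a log2FC of 0.74 (SE 0.19). *Aldh1a2*, a retinoic acid synthesising enzyme, was at 0.0428 to 0.235 RPM at Rest (median 0.139) and 0.648 to 2.29 RPM at EPS 0h (median 1.12), and with a Rest median under the level of 3 counts no fold is given. The groups did not overlap for *Aldh3a1*, *Ahr* and *Aldh1a2*, and *Aldh1a2* passed the filter on low counts only through groups other than Rest.

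Immediate-early genes moved in both directions. All 3 NR4A orphan nuclear receptors rose, 6 of 13 AP-1 and related factors rose and 2 fell, and of the 15 EGR, IER and SRF genes 2 rose and 3 fell (5 fell with the block). *Nr4a1* was at 40.4 to 86.7 RPM at Rest (median 59.2) and 128 to 200.2 RPM at EPS 0h (median 165), a log2FC of 1.40 (SE 0.15, edgeR adjusted p = 6.2e-09). *Nr4a2* had a log2FC of 0.84 (SE 0.20) and *Nr4a3* one of 2.57 (SE 0.23). *Fos* was at 29 to 50.6 RPM at Rest (median 35.3) and 47.5 to 73.5 RPM at EPS 0h (median 59.3), a log2FC of 0.73 (SE 0.13, edgeR adjusted p = 2.1e-05). *Junb*, by contrast, was at 405 to 767 RPM at Rest (median 496) and 97.6 to 291 RPM at EPS 0h (median 160.0), a log2FC of -1.65 (SE 0.32, edgeR adjusted p = 8.0e-05), so members of the same dimer family moved in opposite directions. *Atf3*, a stress-induced factor of the same superfamily, was at 139 to 213 RPM at Rest (median 164) and 390.2 to 472 RPM at EPS 0h (median 419.6), a log2FC of 1.36 (SE 0.10, edgeR adjusted p = 1.4e-12). *Maff*, a small MAF protein, was at 55.8 to 77.9 RPM at Rest (median 67) and 96 to 138 RPM at EPS 0h (median 117), a log2FC of 0.84 (SE 0.13, edgeR adjusted p = 2.6e-06). *Batf* had a fitted log2FC of 2.18 (SE 0.25) from 0.328 to 0.652 RPM at Rest (median 0.469) to 1.36 to 2.59 RPM at EPS 0h (median 2.33). Being under 1 RPM in every Rest library, *Batf* passed the filter on low counts only through other groups, so its rise is not independent of that filter. *Egr1*, the zinc finger factor induced by serum and by contraction, was at 166 to 306 RPM at Rest (median 217) and 176 to 295 RPM at EPS 0h (median 252), a log2FC of 0.16 (SE 0.15, edgeR adjusted p = 0.42). *Egr2*, *Egr3* and the survival gene *Ier3* fell by 0.56, 0.37 and 1.11, and the EGR co-repressors *Nab1* and *Nab2* rose by log2FC of 1.17 and 1.00. The Rest and EPS 0h ranges were separate for *Nr4a1*, *Junb*, *Atf3*, *Maff* and *Batf*. Overlap was seen for *Fos* and *Egr1*.

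The *Nr4a1* promoter at chr15:101164410-101164709 (GRCm39, plus strand) is shown because the MEF2 sites that pass calcium signals to this gene are known in lymphocytes and muscle, and both matches to the MEF2 motif are in capitals.
Nr4a1: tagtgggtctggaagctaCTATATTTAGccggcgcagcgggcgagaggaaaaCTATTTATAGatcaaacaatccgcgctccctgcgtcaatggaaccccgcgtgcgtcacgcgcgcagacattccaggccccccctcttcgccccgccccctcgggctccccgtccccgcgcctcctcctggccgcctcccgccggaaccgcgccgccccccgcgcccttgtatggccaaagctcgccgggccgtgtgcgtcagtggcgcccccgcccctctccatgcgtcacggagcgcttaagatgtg
They begin 232 and 198 bases before the start. A MEF2 match occurred in 2.28% of protein-coding promoters.

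Krüppel-like factors had 3 of 13 higher (5 with the block) and 2 lower. *Klf15*, which drives amino acid and lipid use in muscle, was at 2.21 to 6.53 RPM at Rest (median 4.85) and 8.9 to 22.3 RPM at EPS 0h (median 11), a log2FC of 1.52 (SE 0.31, edgeR adjusted p = 0.00015). *Klf2*, a flow-responsive factor, was at 30.9 to 44.5 RPM at Rest (median 40.4) and 10.7 to 16.4 RPM at EPS 0h (median 14.5), a log2FC of -1.46 (SE 0.17, edgeR adjusted p = 1.3e-08). Among 22 CREB and activity-regulated genes 12 rose and 2 fell, with a median log2FC of 0.65. *Bdnf*, a neurotrophin also made by contracting muscle, was at 16.1 to 25.6 RPM at Rest (median 20.5) and 64.5 to 84.2 RPM at EPS 0h (median 76.9), a log2FC of 1.87 (SE 0.17, edgeR adjusted p = 9.8e-11). *Arc*, known from active neurons, was at 27.9 to 55.8 RPM at Rest (median 38.5) and 93.3 to 118 RPM at EPS 0h (median 105), a log2FC of 1.40 (SE 0.16, edgeR adjusted p = 7.4e-09). *Homer1*, a scaffold of calcium channels, had a log2FC of 1.41 (SE 0.23) and *Sik1*, a kinase that restrains CREB coactivators, one of 0.75 (SE 0.13). *Crtc1*, such a coactivator, and *Pim1*, a survival kinase, fell by 1.00 and 0.77. For *Klf15*, *Klf2*, *Bdnf* and *Arc* no Rest library reached into the EPS 0h range.

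Members of the same feedback families moved in opposite directions. Of 18 MAP kinase inhibitors 7 rose and 3 fell. The JNK and p38 phosphatases *Dusp16* and *Dusp8* rose with log2FC of 1.16 (SE 0.14) and 0.75 (SE 0.10), and *Dusp10*, of the same specificity, fell by 0.76. *Dusp1*, which acts on several MAP kinases, was at 51.9 to 65.7 RPM at Rest (median 57.5) and 67.2 to 93.2 RPM at EPS 0h (median 73.6), a log2FC of 0.36 (SE 0.10, edgeR adjusted p = 0.0035). Of 18 mRNA decay and early feedback factors 5 rose and 6 fell, or 8 and 7 with the block. The SOCS genes, which inhibit cytokine receptors, showed both directions. *Socs3* was at 24.4 to 47.5 RPM at Rest (median 32.1) and 9.43 to 21.2 RPM at EPS 0h (median 14.4), a log2FC of -1.20 (SE 0.26, edgeR adjusted p = 0.00047) and *Socs1* fell by 1.35, while *Socs2*, *Socs5* and *Socs6* rose with log2FC from 0.43 to 0.74. The mRNA-destabilising *Zfp36* fell by 0.78 and its relative *Zfp36l1* rose with a log2FC of 1.00. The antiproliferative *Btg2* fell by 1.11 and *Btg3* rose with a log2FC of 1.01. No overlap between the groups was seen for *Dusp1* and *Socs3*.

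The promoter of *Dusp8* at chr7:141649003-141649302 (GRCm39, minus strand, printed in the gene's sense) is shown as the member of these groups with 2 full cyclic AMP response elements, TGACGTCA, in capitals.
Dusp8: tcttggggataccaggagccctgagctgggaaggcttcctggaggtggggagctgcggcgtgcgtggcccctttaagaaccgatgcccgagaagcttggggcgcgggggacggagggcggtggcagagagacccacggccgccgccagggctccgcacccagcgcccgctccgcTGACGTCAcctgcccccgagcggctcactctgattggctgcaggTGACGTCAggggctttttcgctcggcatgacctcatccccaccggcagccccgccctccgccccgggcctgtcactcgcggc
They begin 76 and 32 bases before the start, and 3.28% of protein-coding promoters hold such an element.

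**Figure D2:**
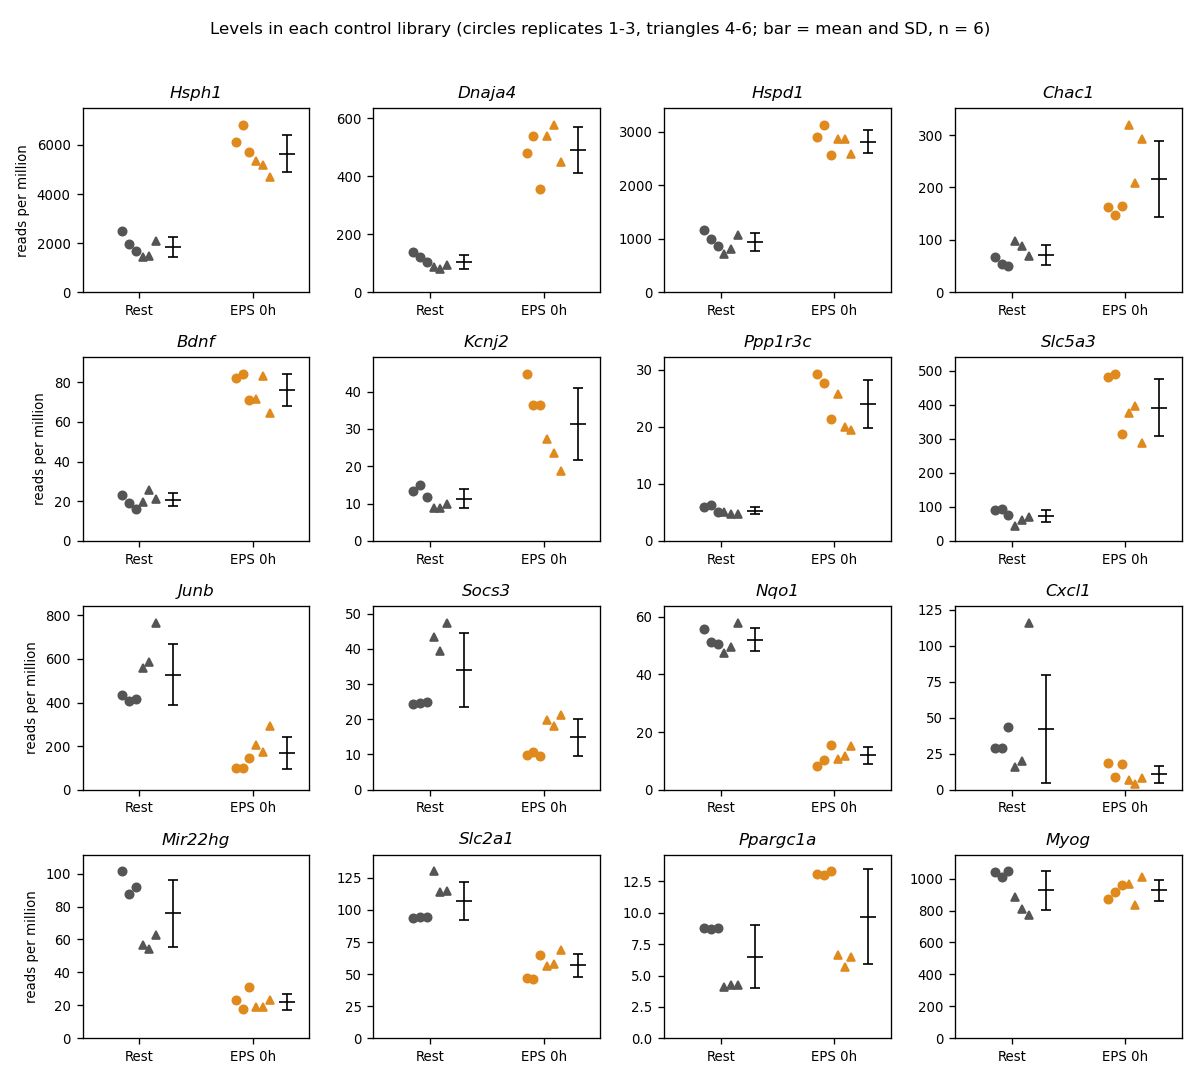
Level in RPM of 16 genes in each of the 12 libraries, with circles for replicates 1 to 3 and triangles for replicates 4 to 6, and a bar with whiskers for the mean and SD of 6. Chaperone genes such as *Hsph1* lie higher in every EPS 0h library, *Nqo1* and *Junb* lie lower in every one, and *Ppargc1a* and *Myog* overlap between groups.

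Of 46 tested genes of excitation-contraction coupling and calcium handling 10 fell (21.7%, beside 18.4% of all genes) and 4 rose. With the replicate block 16 fell (34.8%, beside 25.4%) and 7 rose, and with scaling by library totals 18 of 46 fell, beside 24.9% of all genes, and 4 rose (8.70%, beside 16.6%). *Ryr1*, the calcium release channel of the sarcoplasmic reticulum, was at 259 to 520.5 RPM at Rest (median 399) and 177 to 403 RPM at EPS 0h (median 275), a log2FC of -0.47 (SE 0.20, edgeR adjusted p = 0.059), and its adjusted p was 0.00035 with the block. *Slc8b1*, the mitochondrial sodium-calcium exchanger, fell by 0.90, *Mrln*, which encodes a micropeptide inhibitor of the calcium pump, by 0.68, and *Stac3*, an adaptor of the voltage sensor, by 0.57. *Camk2d*, a calmodulin kinase, rose with a log2FC of 0.84 (SE 0.20) and the store sensor *Stim2* with one of 0.55. RGK GTPases, which inhibit voltage-gated calcium channels, had 3 of 4 higher and 1 lower. *Rrad* was at 13.7 to 20.8 RPM at Rest (median 16.8) and 35 to 60.8 RPM at EPS 0h (median 46.9), a log2FC of 1.46 (SE 0.14, edgeR adjusted p = 1.4e-10). *Rem2* was at 0.0428 to 0.574 RPM at Rest (median 0.419) and 1.22 to 2.38 RPM at EPS 0h (median 1.83), with a fitted log2FC of 2.23 (edgeR adjusted p = 5.6e-06), with 1.62 over replicates 1 to 3 but 2.76 over replicates 4 to 6. Among 20 sodium pump and channel genes 6 fell (9 with the block). The member that rose was *Kcnj2*, the inward rectifier that sets the resting potential, at 8.77 to 14.9 RPM at Rest (median 10.9) and 18.7 to 44.7 RPM at EPS 0h (median 31.8), a log2FC of 1.47 (SE 0.31, edgeR adjusted p = 0.00025). *Slc5a3*, the sodium-coupled carrier of myo-inositol, an osmolyte, was at 44 to 93.8 RPM at Rest (median 74.4) and 288 to 491 RPM at EPS 0h (median 386), a log2FC of 2.42 (SE 0.24, edgeR adjusted p = 5.8e-10). It starts at the same base as *Mrps6* on the same strand (log2FC 0.33, edgeR adjusted p = 0.11, or 0.007 with the block), so reads of any shared exon may not be separable. Calcineurin and NFAT genes had 3 of 14 higher and 3 lower. *Nfatc4* fell by 1.22 and *Nfatc1* by 0.79, and *Rcan1*, the usual reporter of calcineurin activity, had a log2FC of -0.15 (SE 0.13, edgeR adjusted p = 0.37). All 6 EPS 0h libraries lay on the same side of all 6 Rest libraries for *Rrad*, *Rem2*, *Kcnj2* and *Slc5a3*. *Rem2*, under 1 RPM in every Rest library, passed the filter on low counts only through other groups, so its rise is not independent of that filter. Overlap was seen for *Ryr1*.

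More growth factor genes rose than fell, and the chemokines that passed the test all fell. Of 35 tested myokine and growth factor genes 15 rose and 4 fell, and their summed level was 4554 ± 414 RPM at Rest and 4798 ± 408 RPM at EPS 0h (SD, n = 6). *Pgf*, placental growth factor, was at 27.2 to 42.3 RPM at Rest (median 34.1) and 63.5 to 112 RPM at EPS 0h (median 93.9), a log2FC of 1.40 (SE 0.15, edgeR adjusted p = 2.4e-09). *Tgfa*, a ligand of the EGF receptor, was at 0.47 to 0.763 RPM at Rest (median 0.579) and 2.38 to 4.66 RPM at EPS 0h (median 3.93), a log2FC of 2.63 (SE 0.24, edgeR adjusted p = 1.1e-10). *Inhba*, whose product dimerises into activin A, had a log2FC of 1.27 (SE 0.17), and *Fst*, which binds activin and myostatin, one of 0.74 (SE 0.24). *Il6*, the best known myokine, was at 3.51 to 8.39 RPM at Rest (median 5.16) and 5.54 to 10.6 RPM at EPS 0h (median 8.92), a log2FC of 0.62 (SE 0.21, edgeR adjusted p = 0.018). *Gdf15* and *Fgf21*, stress hormones that are also ATF4 targets, rose with log2FC of 0.93 (SE 0.24) and 0.77 (SE 0.18). *Vegfa* rose with a log2FC of 0.38 (SE 0.13), while *Csf1* and *Areg* fell by 0.65 and 0.71. The groups did not overlap for *Pgf* and *Tgfa*. With every Rest library under 1 RPM, *Tgfa* passed the filter on low counts only through other groups. Its rise is not independent of that filter. *Il6* had overlapping groups.

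Of 12 tested chemokines 5 fell and 0 rose by edgeR, DESeq2 or limma-voom, with 0 higher at an unadjusted p under 0.05. The summed level was 282 ± 125 RPM at Rest and 169 ± 25.0 RPM at EPS 0h (SD, n = 6), and Rest replicate 6 alone stood at 531 RPM. *Cxcl1*, a neutrophil attractant, was at 15.8 to 116 RPM at Rest (median 29.1) and 4.24 to 18.5 RPM at EPS 0h (median 8.31), a log2FC of -1.99 (SE 0.50, edgeR adjusted p = 0.0018). Within replicates 1 to 3 its log2FC was -1.19 and within replicates 4 to 6 it was -2.98, and without replicate 6 it was -1.28 (edgeR adjusted p = 0.026). *Ccl2*, which recruits monocytes, was at 42.2 to 158 RPM at Rest (median 49.1) and 24.6 to 46.9 RPM at EPS 0h (median 39.2), a log2FC of -0.95 (SE 0.30, edgeR adjusted p = 0.011), and without replicate 6 the log2FC was -0.56 with an adjusted p of 0.1. In replicates 1 to 3 alone it was -0.60 (edgeR adjusted p = 0.13) and in replicates 4 to 6 alone -1.26 (0.017). The macrophage and leukocyte markers moved in the same direction, from a sum of 4.87 to 13.2 RPM to 3.08 to 6.60 RPM, with *Adgre1* at 0 counts in all 12 libraries, and their part in the chemokine values was not tested. NF-kB genes had 5 of 20 higher and 6 lower. *Nfkbia*, the inhibitor that NF-kB induces, was at 60.6 to 109.8 RPM at Rest (median 70.9) and 28.1 to 47.6 RPM at EPS 0h (median 35.9), a log2FC of -1.06 (SE 0.13, edgeR adjusted p = 4.1e-08), and *Bcl3* fell by 1.32. *Nfkbid*, a nuclear IkB protein, rose with a fitted log2FC of 1.86 (SE 0.29). Interferon response genes had 6 of 24 lower (11 with the block) and 1 higher. *Irf1* fell by 1.02. The Rest and EPS 0h ranges were separate for *Nfkbia*. The groups overlapped for *Cxcl1* and *Ccl2*.

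In the TGF-beta and BMP pathway 9 of 24 genes rose and 7 fell, or 7 and 8 with scaling by library totals. The ID genes, direct targets of BMP receptors that hold back differentiation, fell together. *Id1* was at 49.6 to 69.7 RPM at Rest (median 63.6) and 14.2 to 33.7 RPM at EPS 0h (median 20.4), a log2FC of -1.47 (SE 0.19, edgeR adjusted p = 1.0e-07), and *Id2* and *Id3* fell by 0.81 and 0.80. The inhibitors *Smad7*, *Bambi* and *Nog* rose, with log2FC from 1.02 to 1.16. *Bmp6* itself was at 0.23 to 0.678 RPM at Rest (median 0.315) and 2.42 to 4.72 RPM at EPS 0h (median 3.15) with a fitted log2FC of 3.12 (edgeR adjusted p = 4.8e-11). YAP and SRF targets had 8 of 23 higher and 2 lower. *Amotl2*, a YAP inhibitor, was at 296 to 428 RPM at Rest (median 357) and 825 to 1136 RPM at EPS 0h (median 949.6), a log2FC of 1.44 (SE 0.12, edgeR adjusted p = 3.3e-11). *Lats2*, its upstream kinase, rose with a log2FC of 1.26 (SE 0.16), and the stretch-responsive *Ankrd2* fell by 0.57. Wnt and Notch genes had 7 of 14 higher and 2 lower, with the ligands *Jag1* and *Dll1* and the receptor *Notch1* higher (log2FC 0.72, 0.66 and 0.75) and the effector *Hes1* lower by 0.65. For *Id1*, *Bmp6* and *Amotl2* no Rest library reached into the EPS 0h range. *Bmp6*, under 1 RPM in every Rest library, passed the filter on low counts only through other groups, so its rise is not independent of that filter.

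More genes of glucose use fell than rose. Of 30 genes of glucose uptake and glycolysis 8 fell (12 with the block) and 1 rose. *Slc2a1*, the basal glucose transporter GLUT1, was at 94.1 to 130.1 RPM at Rest (median 104) and 46.3 to 68.8 RPM at EPS 0h (median 57), a log2FC of -0.91 (SE 0.12, edgeR adjusted p = 3.6e-07). *Slc16a3*, the lactate exporter MCT4, was at 15.8 to 28.1 RPM at Rest (median 17.9) and 8.4 to 13.9 RPM at EPS 0h (median 11.4), a log2FC of -0.86 (SE 0.22, edgeR adjusted p = 0.0018). *Slc2a4*, the insulin-sensitive transporter GLUT4, had a log2FC of -0.43 (SE 0.29, edgeR adjusted p = 0.24). *Pdk4*, which closes pyruvate dehydrogenase, and *Cpt1a*, the gate of fatty acid oxidation, fell by 0.70 and 0.71. In glycogen metabolism 3 of 16 rose (5 with the block) and 1 fell (4 with the block), while scaling by library totals gave 2 higher and 4 lower. *Ppp1r3c*, which targets protein phosphatase 1 to glycogen and activates its synthesis, was at 4.79 to 6.22 RPM at Rest (median 5.08) and 19.4 to 29.2 RPM at EPS 0h (median 23.5), a log2FC of 2.17 (SE 0.19, edgeR adjusted p = 5.7e-11). Targets of hypoxia-inducible factor had 6 of 21 higher and 3 lower (5 with the block), with the collagen hydroxylase *P4ha1* at a log2FC of 1.22 (SE 0.09). Scaling by library totals gave 4 targets higher and 6 lower (19% and 28.6%, beside 16.6% and 24.9% of all genes). *Pparg*, the lipid nuclear receptor, was at 16.7 to 26.8 RPM at Rest (median 20.3) and 40.1 to 58.9 RPM at EPS 0h (median 47.3), a log2FC of 1.24 (SE 0.12, edgeR adjusted p = 2.4e-10). Among the fatty acid oxidation and PPAR genes 2 of 26 rose and 6 fell (3 without replicate 2). In cholesterol synthesis *Hmgcs1*, *Idi1* and *Msmo1* rose, with log2FC from 0.58 to 0.82, and *Fdps* fell by 0.77. Of the 25 genes of this pathway 5 rose and 3 fell, or 6 and 8 with the block. No overlap between the groups was seen for *Slc2a1*, *Slc16a3*, *Ppp1r3c* and *Pparg*.

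*Ppargc1a*, which encodes the mitochondrial biogenesis coactivator PGC-1alpha, was at 4.07 to 8.83 RPM at Rest (median 6.49) and 5.7 to 13.3 RPM at EPS 0h (median 9.8), a log2FC of 0.58 (SE 0.32, edgeR adjusted p = 0.15). Its groups overlapped. The level was higher in replicates 1 to 3 than in replicates 4 to 6 in both conditions, and the log2FC was 0.58 and 0.58 within these sets. With the replicate number as a block the adjusted p was 0.00026. *Ppargc1b*, its relative, had a log2FC of -0.00 (SE 0.15). Of 22 regulators of mitochondrial biogenesis 4 rose and 5 fell, or 7 and 9 with the block. *Gabpa*, which encodes nuclear respiratory factor 2 alpha, rose with a log2FC of 0.63 (SE 0.11), and the mitochondrial RNA polymerase *Polrmt* and DNA polymerase *Polg* fell by 0.35 and 0.57. *Tfam* and *Nrf1* had log2FC of 0.20 and -0.19 with adjusted p of 0.064 and 0.074 by edgeR, and 0.03 and 0.044 with the block. *Esrrb*, an oestrogen-related receptor, was at 0.0424 to 0.328 RPM at Rest (median 0.111) and 0.406 to 0.879 RPM at EPS 0h (median 0.685), too low at Rest for a fold, and passed the filter through other groups, while *Esrrg* had a log2FC of 0.33 (edgeR adjusted p = 0.55). *Mtfr2*, a fission regulator, was at 1.69 to 3.29 RPM at Rest (median 2.14) and 7.49 to 14.4 RPM at EPS 0h (median 9.7), a log2FC of 2.22 (SE 0.22, edgeR adjusted p = 7.2e-10). The respiratory chain moved little, with 6 of 81 nuclear-encoded subunits lower (1 without replicate 2) and 0 higher by edgeR, and 0 higher at an unadjusted p under 0.05. With the replicate block 7 were lower and 1 higher. In replicates 1 to 3 alone 10 were higher and 11 lower, and in replicates 4 to 6 alone 0 in either direction. Of 10 tested mitochondrially encoded subunits 0 were called by edgeR and 0 had an unadjusted p under 0.05, and their median log2FC was 0.69 over replicates 1 to 3 but -0.37 over replicates 4 to 6. The mitochondrial ribosomal RNAs *mt-Rnr1* and *mt-Rnr2* rose with log2FC of 1.24 and 1.48, again with larger values in replicates 1 to 3 (1.79 and 2.19) than in replicates 4 to 6 (0.61 and 0.73). The libraries were made from poly-A RNA. Of 81 cytosolic ribosomal protein genes 0 were called by edgeR and by limma-voom and 1 by DESeq2, with 2 at an unadjusted p under 0.05, whereas replicates 1 to 3 alone gave 23 higher and the replicate block 2. All 6 EPS 0h libraries lay on the same side of all 6 Rest libraries for *Esrrb* and *Mtfr2*. The groups overlapped for *Ppargc1a*.

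More myogenic transcription factors rose than fell, and 0 of 51 sarcomere genes rose. Of 21 factors 11 rose and 2 fell, with a median log2FC of 0.47. *Myf6*, the latest acting of the MyoD family, was at 1.6 to 2.96 RPM at Rest (median 2.01) and 4.13 to 9.64 RPM at EPS 0h (median 6.6), a log2FC of 1.71 (SE 0.32, edgeR adjusted p = 5.0e-05). *Myf5*, its neighbour on chromosome 10 and a gene of muscle progenitors, was at 11.6 to 15.8 RPM at Rest (median 13.4) and 26.5 to 40.9 RPM at EPS 0h (median 31.5), a log2FC of 1.31 (SE 0.20, edgeR adjusted p = 3.5e-06). *Myog* and *Myod1*, the remaining family members, had log2FC of -0.00 (SE 0.11) and 0.08 (SE 0.09) and did not pass the test. *Vgll4*, a TEAD cofactor, was at 40.4 to 49.3 RPM at Rest (median 45) and 94.6 to 118 RPM at EPS 0h (median 114), a log2FC of 1.29 (SE 0.09, edgeR adjusted p = 7.6e-13). *Mef2a* rose with a log2FC of 0.47 and *Mef2d* fell by 0.27. Among 51 sarcomere genes 5 fell and 0 rose by edgeR, DESeq2 and limma-voom, and an unadjusted p under 0.05 was reached by 8, all lower. The replicate block gave 2 higher and 10 lower, and scaling by library totals 11 lower (21.6%, beside 24.9% of all genes). *Nrap*, a chaperone of myofibril assembly, was at 188 to 306 RPM at Rest (median 249) and 92.9 to 148 RPM at EPS 0h (median 120.5), a log2FC of -1.06 (SE 0.17, edgeR adjusted p = 4.3e-06), and *Tcap*, the titin cap, fell by 0.95. *Acta1*, skeletal actin, had a log2FC of 0.05 (SE 0.12). *Dmd*, dystrophin, had a log2FC of 0.65 with an edgeR adjusted p of 0.15, or 0.0094 with the block. In the protein breakdown lists, 6 of 20 atrophy ligase and FOXO genes rose and 4 fell, 5 of 39 autophagy genes rose and 13 fell (6 without replicate 4, the lowest count on leaving out a replicate), and 4 of 43 proteasome subunits fell (0 without replicate 1). The muscle ligase *Trim63* (MuRF1) fell by 0.46, and *Fbxo32* (atrogin-1) had a log2FC of -0.13 (SE 0.13, edgeR adjusted p = 0.46). The groups did not overlap for *Myf6*, *Myf5*, *Vgll4* and *Nrap*.

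Among other families, 5 of 18 circadian genes rose (8 with the block) and 2 fell. *Clock* was at 40.6 to 74.9 RPM at Rest (median 68.7) and 92.9 to 158 RPM at EPS 0h (median 129), a log2FC of 0.99 (SE 0.17, edgeR adjusted p = 1.2e-05). p53 targets had 7 of 22 lower and 2 higher (4 with the block), with the pro-apoptotic *Bbc3* lower by 1.35 (-1.91 over replicates 1 to 3 but -0.81 over replicates 4 to 6) and the cell cycle inhibitor *Cdkn1a* at a log2FC of -0.22 (edgeR adjusted p = 0.054, or 0.034 with the block). Of 14 nuclear long noncoding RNAs 3 rose and 4 fell. *Mir22hg*, the host of a muscle microRNA, was at 54.4 to 101 RPM at Rest (median 75.3) and 17.9 to 31.1 RPM at EPS 0h (median 21), a log2FC of -1.78 (SE 0.17, edgeR adjusted p = 4.5e-10), and *Neat1*, the scaffold of paraspeckles, fell by 0.84 (-1.41 in replicates 1 to 3 and -0.32, edgeR adjusted p = 0.12, in replicates 4 to 6). Zinc finger genes named Zfp had 43 of 295 higher (14.6%) and 79 lower (26.8%), and solute carriers 31 of 220 higher (14.1%) and 61 lower (27.7%). The Rest and EPS 0h ranges were separate for *Clock* and *Mir22hg*.

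Among genes with a standard symbol that reached 5 RPM in either group without overlap, the largest rises were in genes with a mean under 2 RPM at Rest, and genes outside these limits, some with larger fitted values, were not ranked. *Gml2* was at 0.0502 to 0.417 RPM at Rest (median 0.266) and 5.18 to 9.95 RPM at EPS 0h (median 7.12), a log2FC of 4.70 (SE 0.34, edgeR adjusted p = 8.0e-13), and *Gml*, which overlaps it on the opposite strand of chromosome 15, at 0.282 to 1.2 RPM at Rest (median 0.547) and 13.4 to 19 RPM at EPS 0h (median 17.2), a log2FC of 4.67 (SE 0.30, edgeR adjusted p = 6.3e-14). The log2FC of *Gml* was 4.14 over replicates 1 to 3 but 5.35 over replicates 4 to 6. The strand setting of the counting is not given in the sources used here, so reads of this overlapping pair may not be separable. *Ccdc81*, a coiled-coil gene, was at 0.15 to 1.2 RPM at Rest (median 0.289) and 3.96 to 9.13 RPM at EPS 0h (median 6.76), a log2FC of 4.04 (SE 0.35, edgeR adjusted p = 3.3e-11). *Slc1a7*, a glutamate transporter, was at 0.214 to 0.887 RPM at Rest (median 0.487) and 5.3 to 11.1 RPM at EPS 0h (median 7.25), a log2FC of 3.91 (SE 0.31, edgeR adjusted p = 4.7e-12). *Lgals7*, a galectin of stratified epithelia, was at 0.297 to 1.67 RPM at Rest (median 0.761) and 8.55 to 13.1 RPM at EPS 0h (median 10.4), a log2FC of 3.57 (SE 0.28, edgeR adjusted p = 2.9e-12), with 3.03 and 4.40 in the same sets. *Mc4r*, *Syne4*, *Gpr62*, *Scube3*, *Bicdl2*, *Rag1* and the replication-dependent histone *H2ac8* completed the 12 largest within these limits, with log2FC from 3.33 to 3.96, and for *Gpr62* the sets gave 2.75 and 4.09. Among predicted genes, *Gm48565* and *Gm5566* rose most, from at most 0.104 and 0.351 RPM at Rest to 2.79 to 16.5 RPM at EPS 0h (median 8.88) and 2.59 to 12 RPM at EPS 0h (median 6.26), and with so few counts at Rest no fold is given, while *Gm3776* and *Gm37795* fell most (log2FC -2.46 and -2.41, the latter -2.95 over replicates 1 to 3 but -1.89 over the others). *H2ac8* has near-identical copies in the histone cluster, so its value is uncertain. Among the largest falls besides *Aldh3a1*, *Sema4c*, a semaphorin of myogenic differentiation, was at 61.2 to 74 RPM at Rest (median 72.8) and 10.6 to 18.1 RPM at EPS 0h (median 16.1), a log2FC of -2.22 (SE 0.23, edgeR adjusted p = 2.5e-09). *Chpf2*, a chondroitin polymerase, was at 64.7 to 95.8 RPM at Rest (median 81.7) and 12.1 to 27.8 RPM at EPS 0h (median 19.7), a log2FC of -2.05 (SE 0.24, edgeR adjusted p = 2.0e-08). *Tsku*, a secreted proteoglycan, was at 22.1 to 44.5 RPM at Rest (median 32.6) and 3.17 to 11.6 RPM at EPS 0h (median 7.06), a log2FC of -2.20 (SE 0.32, edgeR adjusted p = 1.1e-06). *Emilin1*, *Sh2d6*, *Cxcl5*, *Bdkrb1*, *Ptgir* and *Pabpn1* fell by 1.99 to 2.44 on the log2 scale, and *Pabpn1* differed between replicates 1 to 3 (-2.84) and 4 to 6 (-0.93), as did *Cxcl5* (-1.35 and -3.11). For *Gml2*, *Gml*, *Ccdc81*, *Slc1a7*, *Lgals7*, *Gm48565*, *Gm5566*, *Sema4c*, *Chpf2* and *Tsku* no Rest library reached into the EPS 0h range. That separation was a condition of the ranking and is not a further result. *Gml2*, *Slc1a7*, *Gm48565* and *Gm5566* were under 1 RPM in every Rest library and passed the filter on low counts only through other groups.

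**Figure D3:**
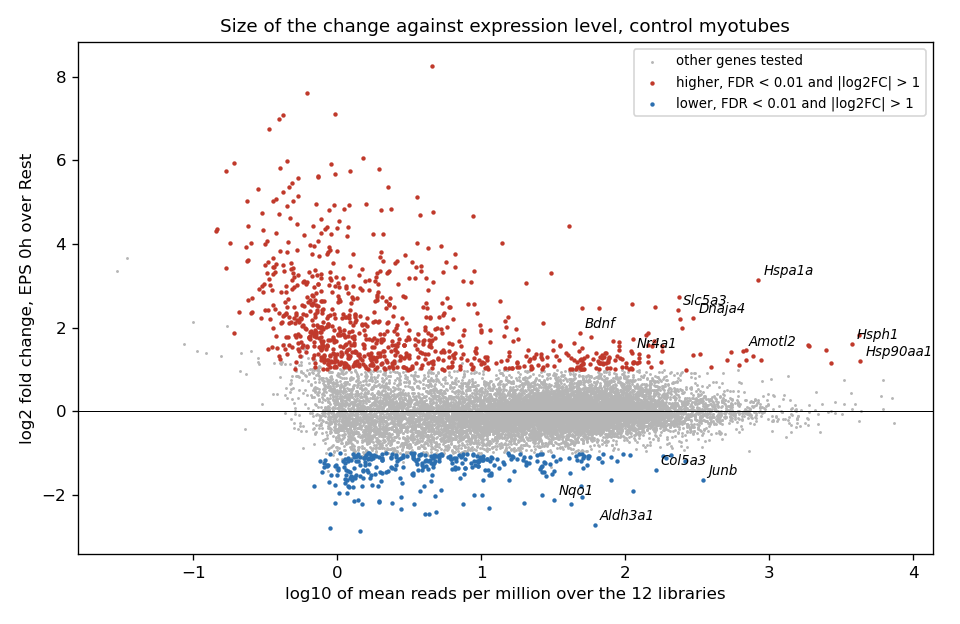
log2 fold change (EPS 0h over Rest) against log10 of the mean RPM over both groups for the 13995 genes tested, with genes past the stricter rule coloured, 872 higher and 308 lower. The higher genes crowd at the low end of the level axis.

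Shares by level at Rest are given as a description, since that level is also the denominator of the fold. Of 955 genes under 1 RPM at Rest, 520 (54.5%) were higher by the stricter rule and 0 lower by edgeR, but such genes passed the filter only through the groups where they were higher, so this share is set by the filter. Among the 13040 genes of at least 1 RPM at Rest, 352 (2.7%) were higher and 308 (2.36%) lower. At 100 RPM or more these were 22 (1.05%) and 13 (0.623%) of 2088. The 872 higher genes took 2% to 2.8% of all counts at Rest (median 2.19%) and 5.16% to 6.86% at EPS 0h (median 5.91%). The 308 lower genes took 0.698% to 0.829% and then 0.23% to 0.357%.

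Shares by annotation class carry the same limit. Of 181 transcripts of the TEC class, which have polyadenylation evidence but await experimental proof, 74 (40.9%) were higher by the stricter rule, of 824 long noncoding RNAs 154 (18.7%), of 266 processed pseudogenes 40 (15.0%) and of 12581 protein-coding genes 582 (4.63%). Of the higher TEC transcripts matched to the annotation, 33 of 73 (45.2%) lay inside a gene of the same strand, beside 27 of 75 (36%) of those not called, and 13 (17.8%) beside 18 (24.0%) lay within 20 kb downstream of one. Of the TEC transcripts 50.3% were under 1 RPM at Rest, of the long noncoding RNAs 27.7%, of the processed pseudogenes 24.1% and of the protein-coding genes 4.31%, and the filter let these through only where they were higher in other groups. Among members of at least 1 RPM at Rest, 13 of 90 TEC transcripts (14.4%) were higher by the stricter rule, 32 of 596 long noncoding RNAs (5.37%), 8 of 202 processed pseudogenes (3.96%) and 291 of 12039 protein-coding genes (2.42%).

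**Figure D4:**
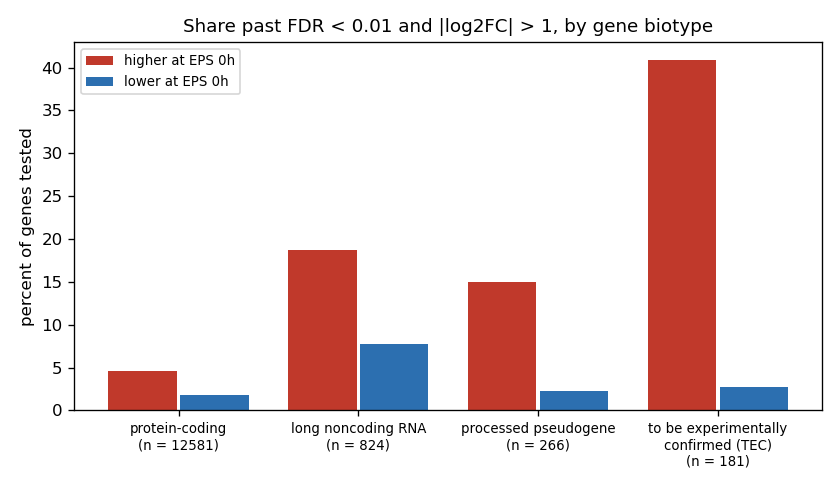
Share of the tested genes of each annotation class that passed the stricter rule, as bars from 0 with higher and lower genes side by side. TEC transcripts reach 40.9% higher, long noncoding RNAs 18.7% and protein-coding genes 4.63%, shares that the filter on low counts raises for classes with many genes under 1 RPM at Rest.

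The same stimulation was applied to Tug1 KD myotubes, which use none of the 12 libraries above. There 3421 genes rose (24.4%) and 2967 fell (21.2%), and 1141 (8.15%) and 350 (2.5%) passed the stricter rule. Of the 872 genes higher in control myotubes all had the same sign in Tug1 KD myotubes and 833 passed the stricter rule there, which is 95.5% of the control list and 73.0% of the Tug1 KD list. Of the 308 lower genes 307 had the same sign and 214 were called, 69.5% and 61.1% of the respective lists. The median log2FC of the higher genes was 1.77 in control and 2.00 in Tug1 KD myotubes, and the first of these values was used to choose the genes. The interaction test, which asks of each gene whether its response differed between the LNAs, called 0 genes by edgeR, DESeq2 and limma-voom, with 324, 352 and 311 at an unadjusted p under 0.05. The median log2FC of the HSP70 list was 0.51 in Tug1 KD myotubes beside 0.41 in control, and that of the NRF2 list -0.52 beside -0.52.

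After 3 h of recovery the control myotubes were compared with the EPS 0h libraries, and 1354 genes were higher (9.67%) and 963 lower (6.88%) at EPS 3h. This comparison shares the EPS 0h libraries with the one above, and both times share the Rest libraries, so the log2FC against Rest are given side by side. The 872 genes higher at EPS 0h, chosen by the first of these values, had a median of 1.77 immediately and of 2.35 after recovery, and the 308 lower genes -1.22 and -1.38. The median of the HSP70 list was 0.41 at EPS 0h and 0.84 at EPS 3h, and that of the HSP90 and HSP60 list 0.39 and 0.57. *Hsph1* had log2FC of 1.60 and then 2.47 against Rest, and *Hspb1*, a small heat shock protein, of 0.74 and then 1.55; both rose from EPS 0h to EPS 3h (edgeR adjusted p = 3.1e-05 and 1.8e-05). The ATF4 list went from a median of 0.26 to 0.10 and the NRF2 list from -0.52 to -0.33. Movement between the times was counted at an edgeR adjusted p under 0.05, among members called at EPS 0h. Of the ATF4 genes, with 13 risen and 2 fallen, 1 moved back toward Rest and 1 further from it. Of the NRF2 genes, with 19 fallen and 1 risen, 5 moved back and 0 further. Of all genes that rose at EPS 0h 146 (5.08%) moved back and 653 (22.7%) further. Of those that fell 125 (4.87%) moved back and 328 (12.8%) further. *Chac1* had 1.60 and then 0.37, and *Klf15* 1.52 and then 0.12, and the fall from EPS 0h passed the edgeR test for both (adjusted p = 0.00024 and 0.001). *Nqo1* stood at -2.12 and then -1.92, and the difference between the times did not pass (edgeR adjusted p = 0.53). *Nfkbia* and *Id1* fell further, to -2.03 and -2.46 against Rest (edgeR adjusted p of the further fall = 8.4e-07 and 0.00022).

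**Figure D5:**
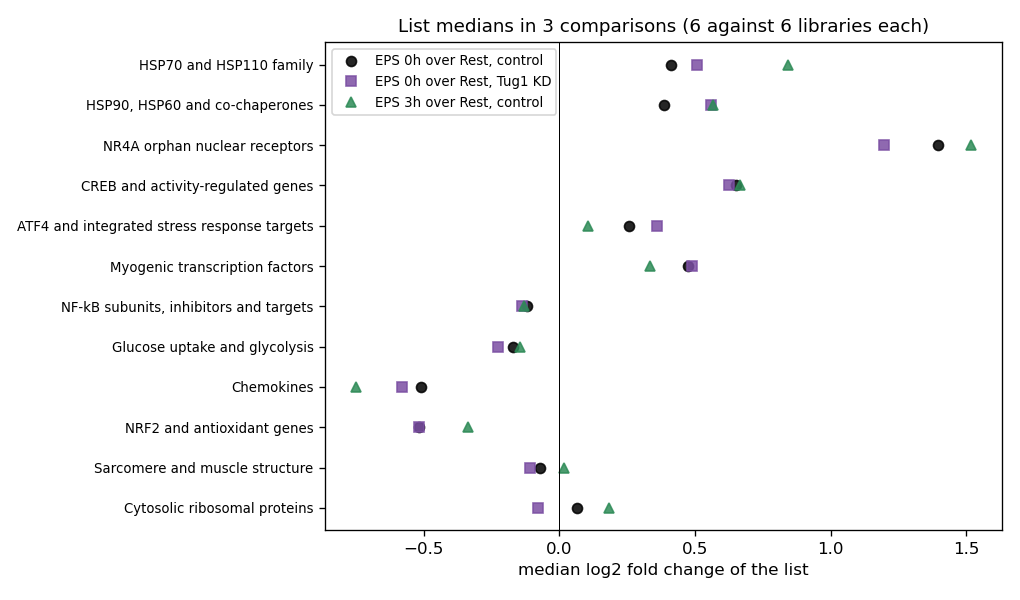
Median log2 fold change of 12 gene lists against Rest in control myotubes at EPS 0h, Tug1 KD myotubes at EPS 0h and control myotubes at EPS 3h. The HSP70 median is 0.41, 0.51 and 0.84 in that order and the NRF2 median is -0.52, -0.52 and -0.33. The control points at both times share the Rest libraries.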

How the data were processed

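Poly-A RNA of 36 wells of C2C12 myotubes (500 ng input, stranded libraries, paired reads of 150 bases) was sequenced by the authors, who trimmed the reads, aligned them to GRCm39 and counted them per gene. The submitters' processing notes name FastQC 0.11.7, fastp 0.14.1 and STAR 2.5. The deposited values are raw counts per gene for 55416 genes, and the strand setting of the counting is not given in the sources used here. The 1492 genes without a name held 0.0327% of the counts and were left out of the lists.

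Only the 13995 genes reaching 1 RPM (here without TMM) in 12 or more libraries were analysed. Their counts were scaled by TMM and fitted over all 6 groups with edgeR 4.0.16 (robust quasi-likelihood, R 4.3.3), without a block for replicate. Standard errors were derived from the log2FC and the F statistic. A log2FC of a gene near 0 counts depends on edgeR's prior count. Alternatives used DESeq2 1.42.0, limma 3.58.1 (voom), other scalings and filters, blocks, replicate sets and leaving out each replicate. In simulated counts for the comparison of EPS 0h with Rest in control myotubes, with 200 of 13995 genes changed, edgeR recovered 84.5% of changes of 1 on the log2 scale and 33% of changes of 0.5. The simulation changed a far smaller share of genes than was called in the data, and no difference between replicate sets was simulated. Its shares therefore do not give the recovery in the real comparison.

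Same-numbered Rest and EPS 0h control libraries deviated together, with correlations of 0.232 to 0.472. Within replicates 1 to 3 and 4 to 6 these correlations were -0.175 to 0.116. The main fit is unpaired, and a fit with the replicate numbers as pairs (the replicate block) was run beside it. Blocked values are given where they change the call of a gene named or move a list's count by more than 1.5 times.

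Gene lists, members and the genes to be named were chosen with earlier results of these data known. The rule named the 12 largest rises and falls past the stricter rule with at least 5 RPM in the higher group, no overlap and a standard symbol, the 2 largest of each among predicted genes, fixed anchor genes of each list, the 2 largest rises and falls of each list, and genes the study discusses. The text gives part of these genes, and other genes named were chosen after their values were seen. Promoters and coordinates are from GRCm39 and the GENCODE annotation. Results for spike-in transcripts were not used here, and values of a few genes are not reported here.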

Additional observations from a re-analysis of the deposited data

Results flagged for a closer look

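Among 202 genes named, both groups of 6 libraries were examined for each gene for a library far from the others, and 20 such cases were found (4.95% of the groups examined). Dixon's test at the 95% level, used here, picks about 1 in 20 independent groups by chance, but these groups share libraries and 11 of the cases came from Rest replicate 6, and 7 of the genes concerned belong to the chemokine, NF-kB, interferon and growth factor lists or their inhibitors. In that library *Cxcl1* was at 116 RPM (the other 5 at 15.8 to 43.6), *Cxcl5* at 32.8 RPM (6.68 to 11.5), *Ccl2* at 158 RPM (42.2 to 79.3), *Csf1* at 616 RPM (307 to 394), *Irf1* at 101 RPM (56.8 to 65.7), *Nfkbia* at 110 RPM (60.6 to 76.5) and *Bcl3* at 16.5 RPM (7.14 to 8.52). Also highest there were *Ier3* at 114 RPM (78.5 to 90.4), *Crtc1* at 78.1 RPM (59.6 to 63.5), *Jag1* at 28.2 RPM (16.9 to 20.3) and *Ptgir* at 20.2 RPM (14.4 to 16.5). Without replicate 6 the log2FC was -1.28 for *Cxcl1* (edgeR adjusted p = 0.026), -1.53 for *Cxcl5* (0.0031) and -0.99 for *Nfkbia* (7.9e-08), and *Ccl2* no longer passed.

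Rest replicate 1 was highest for *Lats2* at 44.3 RPM (the other 5 at 33.1 to 34.2), for *Btg3* at 38.5 RPM (23.6 to 27.8) and for *Ccdc81* at 1.2 RPM (0.15 to 0.322). At EPS 0h, replicate 5 was highest for *Hes1* at 68 RPM (37.8 to 47.9), *Dusp1* at 93.2 RPM (67.2 to 75.6), *Msmo1* at 274 RPM (197 to 210) and *Gpr62* at 14.4 RPM (3.11 to 6.98). Replicate 3 was highest for *Pdk4* at 35.8 RPM (24.8 to 27.9) and lowest for *Batf* at 1.36 RPM (2.13 to 2.59). Whether these libraries differ in handling was not tested.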

How the results depend on the processing

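By the stricter rule 872 genes were higher and 308 lower in control myotubes. Without a filter on low counts these became 1569 and 493, with at least 10 counts in 6 libraries 1352 and 470, and with edgeR's test against a log2FC of 1 itself (glmTreat) 353 and 30. Replicates 1 to 3 alone gave 489 lower genes, and higher genes were then 60.9% of the calls beside 73.9% in all libraries. Leaving out each replicate in turn gave 790 to 933 higher and 257 to 327 lower, and at an adjusted p under 0.05 2412 to 3168 higher and 2050 to 2248 lower. With the replicate block, a paired analysis in the 12 libraries, 892 were higher and 324 lower, and at an adjusted p under 0.05 3508 and 3556 beside 2872 and 2569 without it, or 3343 and 3394 with a term for replicates 1 to 3 against 4 to 6, so that higher genes were 49.7% and 49.6% of the calls beside 52.8%. In Tug1 KD myotubes (1141 higher, 350 lower) the absence of a filter gave 2065 and 592, the filter of 10 counts 1793 higher, replicates 1 to 3 alone 648 lower, and leaving out a replicate 1003 to 1224 higher and 286 to 417 lower. The interaction test called 1 gene with the replicate block over 36 libraries (640 at an unadjusted p under 0.05) and 1 with the term for replicates 1 to 3 against 4 to 6 (510), *Sesn1* in both. Its log2FC was 0.29 in control (edgeR adjusted p = 0.13, or 0.011 with the block) and 1.05 in Tug1 KD myotubes. Without a block, leaving out a replicate gave 0, as did all libraries, and the blocked fits were not repeated without a replicate.

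Scaling by library totals shifted the median log2FC by -0.08 relative to TMM and gave more falls over all genes (3483, or 24.9%) and in several lists, among them 13 collagen genes (37.1%), 11 sarcomere genes (21.6%), 15 mitochondrial ribosomal protein genes (19.5%) and 8 proteasome genes (18.6%), the last 3 below the share of all genes. Genes close to the threshold lost their call on leaving out at least 1 replicate, namely *Areg*, *Ccl2*, *Egr2*, *Egr3*, *Fst*, *Il6*, *Keap1*, *Mef2a*, *Mef2d*, *Mrln*, *Nfe2l2*, *Slc3a2* and *Vegfa*, and their falls or rises should be read with that limit. No gene named had a called log2FC that changed sign under any alternative run. The cause of these differences was not tested. Depth limits genes near 0.15 RPM, where 3 counts are the floor, and wells of 1 cell line carry no variation between animals.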
